A study of Mus musculus with 14 samples.

Results

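The proneural basic helix-loop-helix (bHLH) genes examined here were Neurog1, Neurog2, Neurog3, Neurod1, Atoh1, Atoh7, Ptf1a, Bhlhe22 and Bhlhe23, 9 genes chosen by family and not by a measured value. Their members in the data were the H3K27me3 peaks that overlapped a gene body or the 5 kb on either side of it, in the mouse genome build mm10 with the GENCODE annotation. This gave 35 of the 23668 deposited peaks, spread over 8 of the 9 genes. The mark was profiled by ChIP-seq, the sequencing of DNA bound to immunoprecipitated chromatin, in wild-type primary hippocampal neurons, cultured from mixed-sex litters of CD1 mouse embryos at embryonic day 17. Lipid nanoparticles carrying an antisense LNA gapmer, an oligomer that directs RNase H cleavage of its target RNA, were added on day 7 in vitro, and experiments were run between days 10 and 21. The gapmer targeted the long noncoding RNA NeuID in the knockdown group and was a negative control oligomer in the control group, and the labels list 6 ChIP libraries of each group and 1 input library of each. Whether the libraries came from separate cultures is not stated in the labels. Each culture shared its genotype, its gapmer chemistry and its lipid carrier with the other group.

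Proneural factors bind E-box DNA as heterodimers with E proteins and drive progenitors out of division and towards a neuronal fate. Notch signalling through the Hes and Hey repressors holds them back, and Id proteins compete for the E proteins. H3K27me3 is the mark that Polycomb repressive complex 2 (PRC2) places on silent genes, often as a broad domain over the CpG-rich start of a developmental regulator. In postmitotic neurons most genes of this family are silent, and Neurod1 and Bhlhe22 are known from particular neurons of the forebrain.

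The deposited values are log2 group means of normalized reads per peak, and a difference is the knockdown mean minus the control mean. Values of single libraries were not analysed here, so no mean below has an SD or a test, and the spread between replicates cannot be set beside any difference. A difference of 1 or more in either direction, a doubling or halving of the mean, is used only as a fixed size for counting. In bulk chromatin, fewer cells with the mark and less of the mark per cell cannot be told apart. H3K27me3 does not measure expression, and neither NeuID itself nor the identity of the cells can be checked from it. Of the 10 neuron markers, 7 had a peak in their window and 1 had its start covered. A peak was found at 1 of 5 astrocyte, 3 of 5 oligodendrocyte and 1 of 5 microglia marker genes, with no start covered. Of all protein-coding genes, 28.0% had a peak and 5.19% a covered start. The window includes the gene body and so grows with gene length, and these counts do not rank the cell types.

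A total of 7 of the 9 genes carried a peak across the annotated gene start, namely Neurog1, Neurog3, Neurod1, Atoh1, Ptf1a, Bhlhe22 and Bhlhe23. Among all 21951 protein-coding genes, 1139 (5.19%) had a covered start. In the related lists described below, covered starts were found at 6 of 11 other neural bHLH genes (54.5%). They were also found at 9 of 22 bHLH genes of other tissues (40.9%) and 3 of 13 Hes, Hey and Id genes (23.1%). Among Notch ligands and receptors it was 1 of 9, and among E protein genes 0 of 3. Any peak in the window was found for 8 of the 9 genes and for 6154 (28.0%) of the protein-coding genes. Neurog2 had a peak within its coding exon but none over its start, and Atoh7 had no peak at all. The 250 bases upstream of 4 starts are shown, because they contrast 3 covered starts with the uncovered start of Neurog2. They come from RefSeq on GRCm38.p6, the assembly that mm10 names, and are written 5′ to 3′ on the gene's strand with each CG dinucleotide, the substrate of DNA methylation and the base of CpG islands, in capitals. They lie at chr10:62132840-62133089 (plus strand) for Neurog3, chr13:56252181-56252430 (minus strand) for Neurog1, chr2:19445413-19445662 (plus strand) for Ptf1a and chr3:127632886-127633135 (plus strand) for Neurog2.
Neurog3: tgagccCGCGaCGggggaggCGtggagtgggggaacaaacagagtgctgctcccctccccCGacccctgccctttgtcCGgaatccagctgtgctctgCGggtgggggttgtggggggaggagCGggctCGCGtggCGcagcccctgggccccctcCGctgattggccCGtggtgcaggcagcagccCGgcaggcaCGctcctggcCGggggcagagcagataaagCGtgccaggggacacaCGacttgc
Neurog1: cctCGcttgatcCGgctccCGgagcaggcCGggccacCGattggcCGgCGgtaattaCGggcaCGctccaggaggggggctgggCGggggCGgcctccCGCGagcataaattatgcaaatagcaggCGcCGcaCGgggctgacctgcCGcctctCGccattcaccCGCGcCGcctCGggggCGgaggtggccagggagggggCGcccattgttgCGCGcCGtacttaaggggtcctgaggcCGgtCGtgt
Ptf1a: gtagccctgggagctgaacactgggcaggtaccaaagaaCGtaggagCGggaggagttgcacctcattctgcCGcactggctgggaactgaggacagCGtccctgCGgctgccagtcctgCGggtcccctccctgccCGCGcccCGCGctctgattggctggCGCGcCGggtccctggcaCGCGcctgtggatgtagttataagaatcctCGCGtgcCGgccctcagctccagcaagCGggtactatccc
Neurog2: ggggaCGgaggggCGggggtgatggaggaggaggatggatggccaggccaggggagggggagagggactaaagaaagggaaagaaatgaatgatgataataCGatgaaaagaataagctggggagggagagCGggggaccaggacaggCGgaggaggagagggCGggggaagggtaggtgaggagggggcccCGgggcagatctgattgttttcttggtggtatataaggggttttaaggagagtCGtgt

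The upstream window held 29 CG in Neurog1, 19 in Ptf1a and 18 in Neurog3, and 8 in Neurog2. Of all 32851 RefSeq promoter windows of this length, 92.1% held at least 1 CG, with a median of 6. As many CG as in Neurog1 were present in 6.78% of them, and as many as in Neurog2 in 43.0%. The remaining windows held 22 CG in Neurod1, 14 in Atoh1, 13 in Bhlhe23 and 9 in Atoh7, and 8 of the 9 genes had an entry in the RefSeq table. The upstream windows of the 6 matched genes with a covered start overlapped a peak, and those of Neurog2 and Atoh7, the pair with the fewest CG, did not.

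**Figure D1:**
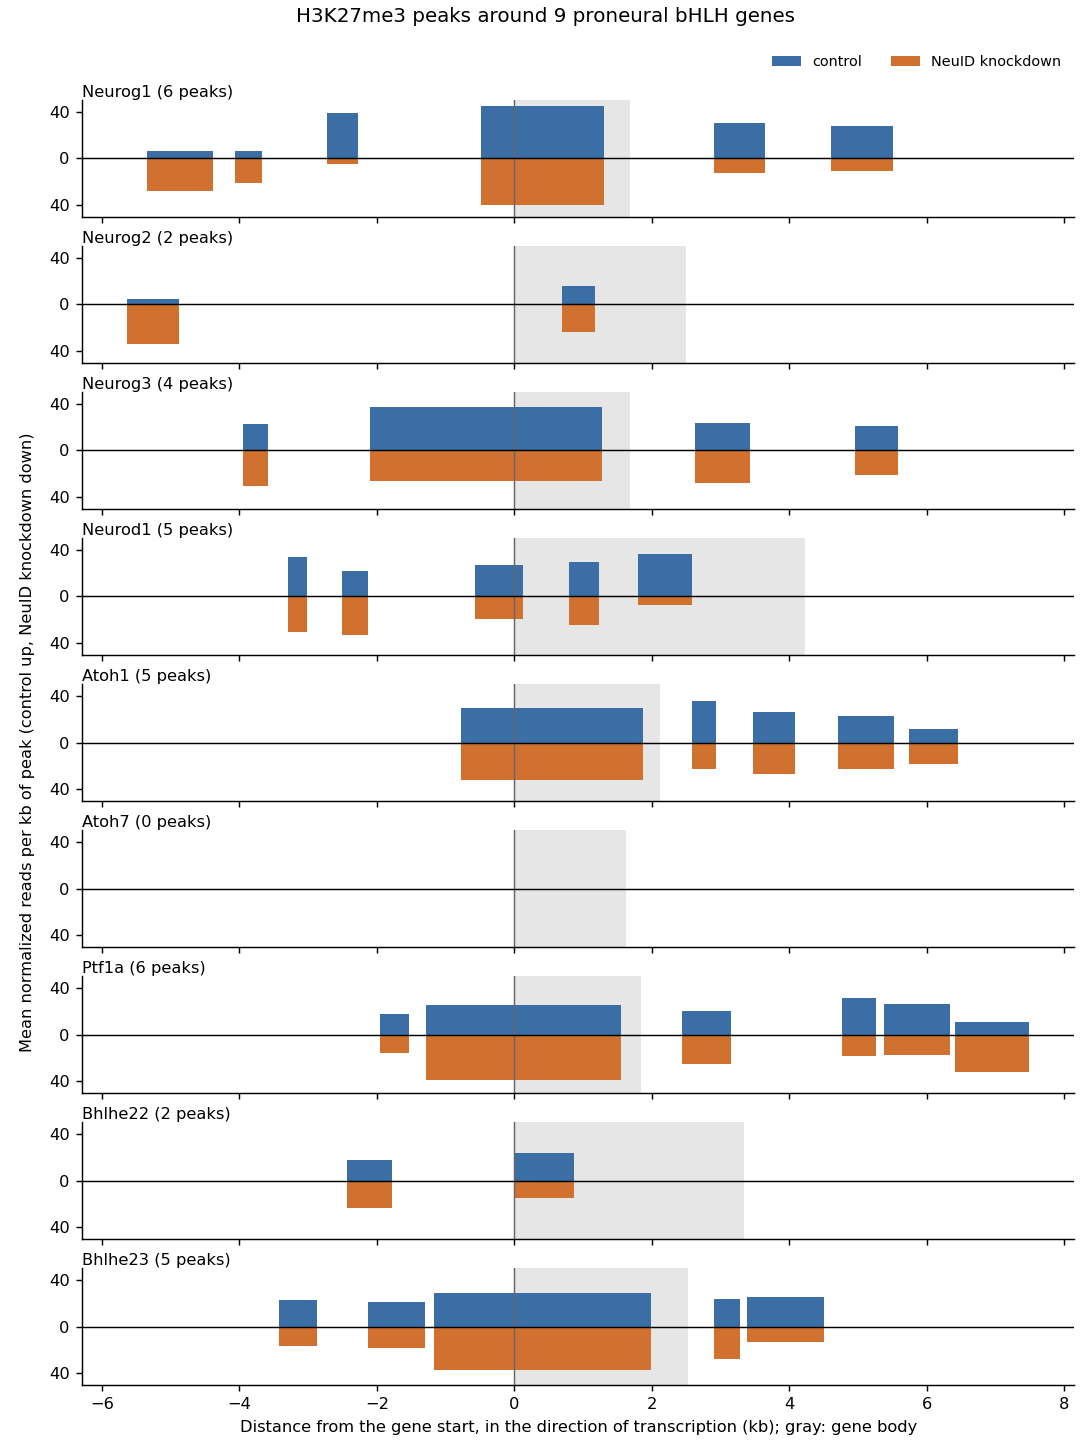
Peaks around each gene, drawn to scale by distance from the gene start in kb along the direction of transcription, with the gene body in gray. Bar height is the mean normalized reads per kb of peak, upward for control and downward for NeuID knockdown; wide peaks lie across the starts of Neurog1, Neurog3, Atoh1, Ptf1a and Bhlhe23, and Atoh7 has no peak.

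The neurogenins are determination factors. Neurog3, the factor of pancreatic endocrine progenitors, had the strongest start peak of the family in control, and the third in knockdown after Bhlhe23 and Ptf1a. This peak spanned 3376 bp at chr10:62130994-62134369, from 2096 bp before the start to 1279 bp after it, and covered untranslated and coding exon sequence. Its mean was 6.98 in control and 6.47 in knockdown (126 and 88.4 normalized reads), a difference of -0.51. The wide peak was thus lower after knockdown, while the 3 flanking peaks of Neurog3 stayed between -0.01 and 0.40. The entire Neurog3 window lies within Fam241b, a gene on the opposite strand, so the peaks overlap both genes. Summed over the window, Neurog3 had 166 normalized reads in control and 135 in knockdown.

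Neurog1, a determination factor of cranial sensory ganglia and of cortical progenitors, had the most uneven window of the family. Of its 6 peaks, 5 were past a difference of 1, as were 41.1% of all peaks. These 5 had means over all libraries (overall means) from 2.36 to 4.17. Of all peaks, 53.9% were past 1 at overall means from 2 to 2.5, and 22.4% from 4 to 4.5. The start peak, 1793 bp at chr13:56250859-56252651, was the exception, with 6.35 in control and 6.17 in knockdown (81.4 and 71.9 reads) and a difference of -0.18. It was the densest of the 35 peaks in control, at 45.4 normalized reads per kb. Of the others, the 2 outermost upstream peaks were higher in knockdown and the remaining 3 were lower.

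Farthest upstream, the Neurog1 peak at chr13:56256545-56257505 (961 bp) had 2.66 in control and 4.76 in knockdown, a difference of 2.10. The next, at chr13:56255840-56256231 (392 bp), had 1.39 and 3.02, a difference of 1.63. Both were weak in control, with 6.56 and 6.70 normalized reads per kb, and higher in knockdown, with 28.1 and 20.7. The peak at chr13:56254437-56254895 (459 bp), whose near end lies 2274 bp upstream of the Neurog1 start, had 4.17 in control and 1.21 in knockdown. Its difference of -2.96, from 18.0 to 2.31 reads, was the lowest of all 35 peaks. Downstream of the gene, the peaks at chr13:56248516-56249263 and chr13:56246657-56247551 had 4.51 and 4.63 in control and 3.18 and 3.31 in knockdown, with differences of -1.33 and -1.32. None of these 5 peaks overlapped an annotated gene. Summed over its 6 peaks, Neurog1 had 156 reads in control and 128 in knockdown, a log2 difference of -0.28.

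Neurog2, the determination factor of glutamatergic neurons of the developing cortex and hippocampus, carried the least H3K27me3 in control of the 8 genes with a peak. Its exon peak, 480 bp at chr3:127633826-127634305 in the coding exon, had 2.96 in control and 3.50 in knockdown (7.77 and 11.3 reads), a difference of 0.54. This was the most CpG-dense of the 35 peaks, at 127 CpG per kb. The other Neurog2 peak, 744 bp at chr3:127627506-127628249, reached across the outer edge of the window, from 5629 to 4886 bp upstream. It had 1.92 in control and 4.65 in knockdown (3.79 and 25.1 reads), and its difference of 2.73 was the highest of the 35. Summed reads at Neurog2 were 11.6 in control and 36.4 in knockdown, a difference of 1.66 that rested on this edge peak.

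The middle 100 bases are shown for the lowest peak, the highest peak and the Neurod1 coding peak described next, the 3 largest differences of the family, with CG in capitals as before. They are read on the plus strand of GRCm38, at chr13:56254617-56254716, chr3:127627828-127627927 and chr2:79454516-79454615.
Neurog1 upstream peak, difference -2.96: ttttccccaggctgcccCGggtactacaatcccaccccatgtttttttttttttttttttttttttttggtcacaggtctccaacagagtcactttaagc
Neurog2 upstream peak, difference 2.73: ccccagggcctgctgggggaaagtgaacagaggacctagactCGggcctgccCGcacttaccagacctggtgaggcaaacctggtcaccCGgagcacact
Neurod1 coding peak, difference -2.27: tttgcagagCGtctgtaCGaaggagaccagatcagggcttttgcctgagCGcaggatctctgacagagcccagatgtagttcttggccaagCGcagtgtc

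Those stretches held 1, 3 and 4 CG, in contrast to the 10 CG in the middle 100 bases of the Neurog2 exon peak. The Neurog1 stretch contains a long run of T.

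Neurod1, a differentiation factor that acts after the neurogenins and is known in granule neurons of the dentate gyrus, had 5 peaks and no wide domain. Its start peak, 701 bp at chr2:79456625-79457325, had 4.23 in control and 3.73 in knockdown (18.8 and 13.3 reads), a difference of -0.50. A 787 bp peak at chr2:79454172-79454958, in the coding exon, had 4.85 in control and 2.58 in knockdown (28.8 and 5.98 reads), a difference of -2.27. It was the strongest Neurod1 peak in control and the weakest in knockdown. The other 3 Neurod1 peaks lay between -0.27 and 0.58. Neurod1 had the lowest summed difference of the 8 genes, -0.62, from 77.7 to 50.4 reads. Cerkl and the noncoding gene Gm26755 overlap parts of this window. By nearest gene start, 3 of the 5 peaks were assigned to Cerkl, among them the Neurod1 start peak, which covers the starts of both genes.

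Of the atonal relatives, Atoh1, the factor of cerebellar granule neurons and inner-ear hair cells, had 5 peaks and none past a difference of 1. Its start peak, 2648 bp at chr6:64728348-64730995, had 6.29 in control and 6.43 in knockdown (78.1 and 86.1 reads), a difference of 0.14. The 4 other peaks, all downstream, had differences between -0.64 and 0.65. Summed reads were 133 in control and 143 in knockdown. Atoh7, which is needed for retinal ganglion cells, had no peak in its window at chr10:63099651-63101279 and 5 kb around it. The nearest peak lay 20593 bp from its body and had 2.78 in control and 2.86 in knockdown. A gene without a listed peak had no region among the deposited peaks, which does not show that none was called in a single library or that the mark was absent.

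Ptf1a, a factor of the pancreas and of inhibitory neurons in the cerebellum and spinal cord, went the other way from Neurog3. Its start peak, 2834 bp at chr2:19444380-19447213, had 6.15 in control and 6.79 in knockdown (71.1 and 111 reads). The difference of 0.64 was the highest of the 7 start peaks. The farthest downstream peak, 1089 bp at chr2:19452065-19453153, had 3.57 and 5.13 (11.9 and 35.1 reads), a difference of 1.57, crossed the edge of the window and overlapped 1810010K12Rik. Adjacent to it, a 969 bp peak had a difference of -0.60, and a 496 bp peak one of -0.77. Summed reads at Ptf1a were 146 in control and 197 in knockdown. The start peak also overlaps the antisense noncoding gene Ptf1aos and covers the starts of both genes, and the ChIP signal has no strand.

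Bhlhe22 and Bhlhe23 belong to the Olig-related branch and act mainly as repressors. Bhlhe22, which works with Prdm8 in cortical projection neurons, had a start peak of 878 bp at chr3:18054169-18055046, with 4.37 in control and 3.71 in knockdown (20.7 and 13.1 reads). This difference of -0.65 was the lowest of the start peaks. The start peak reached only 5 bp upstream of the Bhlhe22 start. The second Bhlhe22 peak, 649 bp wide and upstream, had 3.50 and 3.94. Bhlhe23, a factor of retinal rod bipolar cells, had a start peak of 3159 bp at chr2:180774907-180778065, with 6.52 in control and 6.87 in knockdown (91.6 and 117 reads), a difference of 0.35. Its 4 other peaks had differences from -0.94 to 0.21, so its summed reads of 160 and 167 were nearly level. The noncoding gene Gm14343 overlaps the Bhlhe23 start peak and both downstream peaks.

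**Figure D2:**
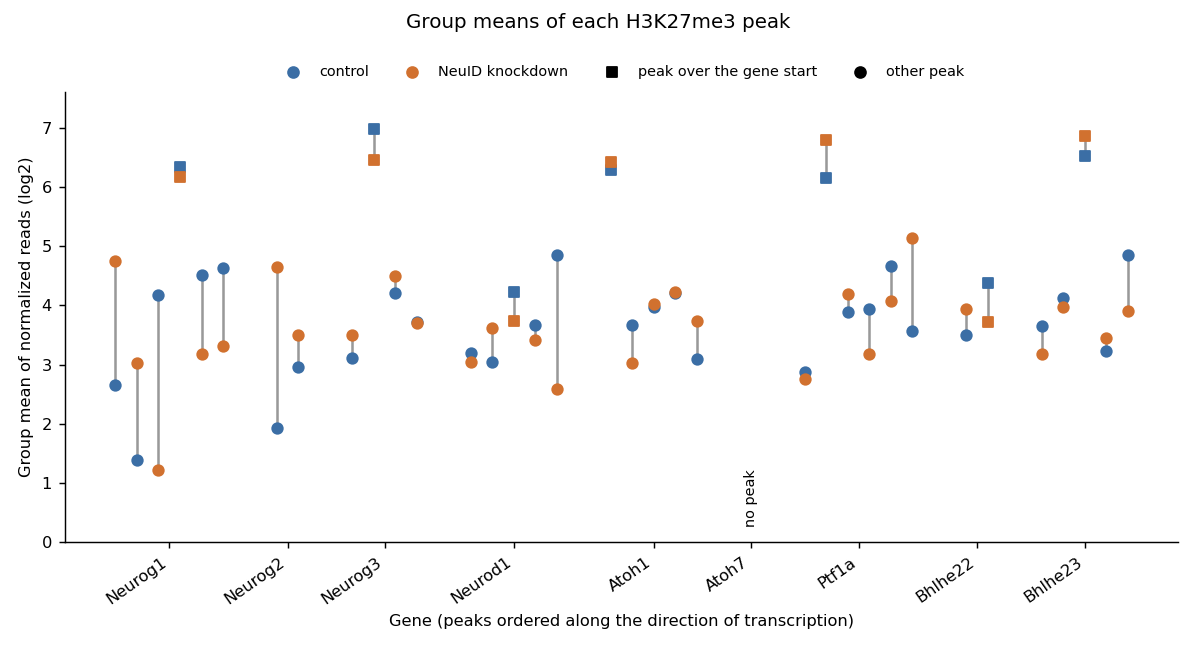
Group means of normalized reads (log2) for each of the 35 peaks, by gene and in the direction of transcription, control in blue and NeuID knockdown in orange, with squares for peaks over a gene start and a gray line joining the group means of a peak. The 5 wide start peaks stand above 6 in both groups, and the longest lines are at Neurog1, Neurog2 and Neurod1.

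Across the family, the start peaks fell into 2 sizes. Those of Neurog3, Bhlhe23, Ptf1a, Atoh1 and Neurog1 were 1793 to 3376 bp wide, and their control means of 6.15 to 6.98 ranked between the 98.0th and 99.4th percentile of all peaks. Those of Neurod1 and Bhlhe22 were 701 and 878 bp wide with control means of 4.23 and 4.37. Among the wide ones, the order by control mean was Neurog3, Bhlhe23, Neurog1, Atoh1 and Ptf1a, and by knockdown mean Bhlhe23, Ptf1a, Neurog3, Atoh1 and Neurog1. Without an error for each mean, no step in either order can be called larger than the spread.

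None of the 7 start peaks was past a difference of 1. Their differences ran from -0.65 to 0.64 with a median of -0.18, 4 below and 3 above 0. Among all 1114 peaks over a protein-coding gene start, 222 (19.9%) were past 1, and among the 594 of them at least 1 kb wide, 49 (8.25%). Summed over the 7 start peaks, reads in knockdown were 103% of those in control.

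The 28 remaining peaks held all of the larger differences. In total 4 of the 35 peaks (11.4%) were lower by 1 or more in knockdown, 3 at Neurog1 and 1 at Neurod1, against 20.6% of all peaks. Another 4 (11.4%) were higher by 1 or more, 2 at Neurog1 and 1 each at Neurog2 and Ptf1a, against 20.4% of all peaks. The share of all peaks past 1 was 53.9% at overall means from 2 to 2.5 and 1.92% from 6 to 6.5, so the counts were repeated for peaks whose overall mean was 4 or more. Of 17 such member peaks, 3 were lower by 1 or more, against a background of 9.12%, and 1 was higher, against 5.02%. The counts are too small to read a direction from them. The median difference of the 35 peaks was -0.01, beside -0.02 for all peaks, and 18 were below and 17 above 0. Reads summed over the 35 peaks were 882.9 in control and 885.5 in knockdown, and no member peak was listed at a log2 mean of 0 in either group, as 6.64% of all peaks were.

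Strength can be taken into account by setting each peak beside all peaks of similar overall mean. In steps of 0.5 on the log2 scale, 6 of the 35 member peaks (17.1%) lay outside the range from the 5th to the 95th percentile, as did 10.0% of all peaks. They were the outermost upstream and the -2.96 peak of Neurog1, the edge peak of Neurog2, the coding peak of Neurod1, and the start peak and the farthest downstream peak of Ptf1a. The Ptf1a start peak is a large domain with a modest difference. Among the 261 peaks with an overall mean from 6 to 6.5, the 95th percentile of the difference was 0.49, under the 0.64 of Ptf1a. The Neurog3 start peak, at -0.51, stayed inside the range of its class, whose 5th percentile was -0.66.

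**Figure D3:**
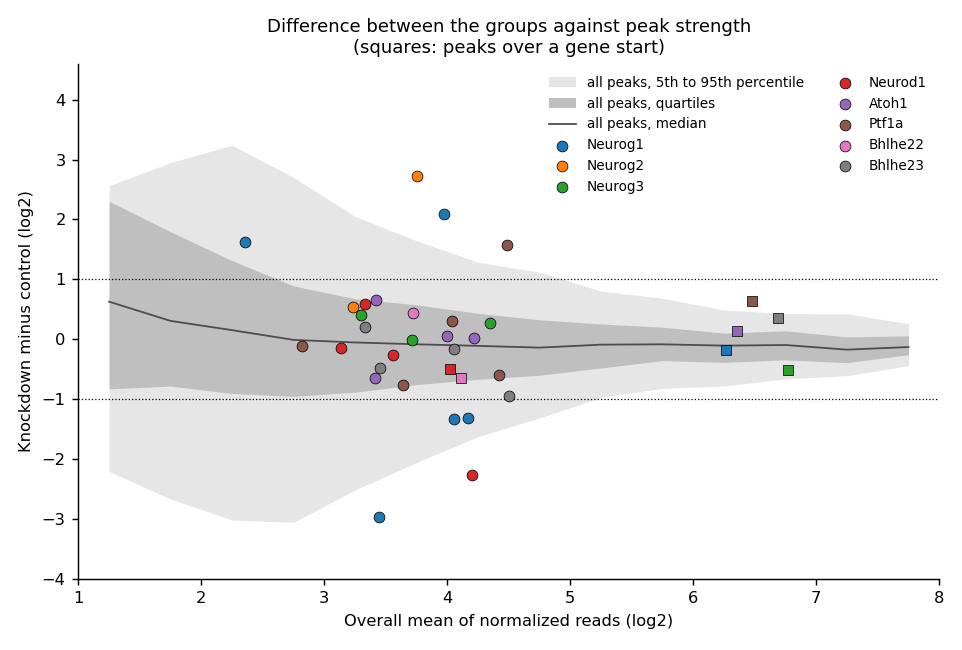
Knockdown minus control (log2) against the overall mean of normalized reads (log2), with member peaks colored by gene, squares over gene starts, and gray bands for all peaks in steps of 0.5. The range of all peaks narrows as the mean rises, the Neurog1, Neurog2 and Neurod1 peaks with the largest differences lie outside it, and the Ptf1a start peak lies just above it; dotted lines mark differences of 1.

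By gene, the order of summed control reads was Neurog3, Bhlhe23, Neurog1, Ptf1a, Atoh1, Neurod1, Bhlhe22 and Neurog2, from 166 down to 11.6. Peaks covered 55.1% of the Ptf1a window and 42.4% to 48.5% of the Bhlhe23, Neurog1, Neurog3 and Atoh1 windows. At Neurod1, Bhlhe22 and Neurog2 they covered 18.0%, 11.4% and 9.79%. Summed reads were lower in knockdown at Neurog3, Neurog1, Neurod1 and Bhlhe22 and higher at Neurog2, Atoh1, Ptf1a and Bhlhe23. Only Neurog2 passed a difference of 1, so 1 of 8 genes was higher and 0 of 8 lower by that size. Of the 6154 protein-coding genes with a peak, 17.6% were higher and 13.8% lower. Those genes had a median of 1 peak and 11.5 control reads, beside 5 peaks and 140 reads for the 8 members. Neurog2, with 11.6 control reads, was the member closest to that background median. The median over the 8 genes was -0.05, beside 0.02 over all those genes.

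The start peaks shared a base composition that the choice of genes did not use. Their CpG density was 32.9 to 93.4 per kb with a median of 56.8, close to the 53.6 of all peaks over a protein-coding gene start and above the median of 12.3 of all peaks. The other 28 member peaks had a median of 17.9, and the 8 peaks past a difference of 1 had 15.2. The ratio of observed to expected CpG, which is near 1 where CpG has not been lost, had a median of 0.67 in the start peaks and 0.29 in the others. It was 0.97 in the Bhlhe22 start peak and 1.00 in the Neurog2 exon peak, the highest in the family. CpG density and read density did not run in the same order. Neurog3 had the lowest CpG density of the start peaks, 32.9 per kb, and the second highest control read density, 37.4 reads per kb, while Bhlhe22 had the highest CpG density, 93.4 per kb, and the lowest read density, 23.5 reads per kb.

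**Figure D4:**
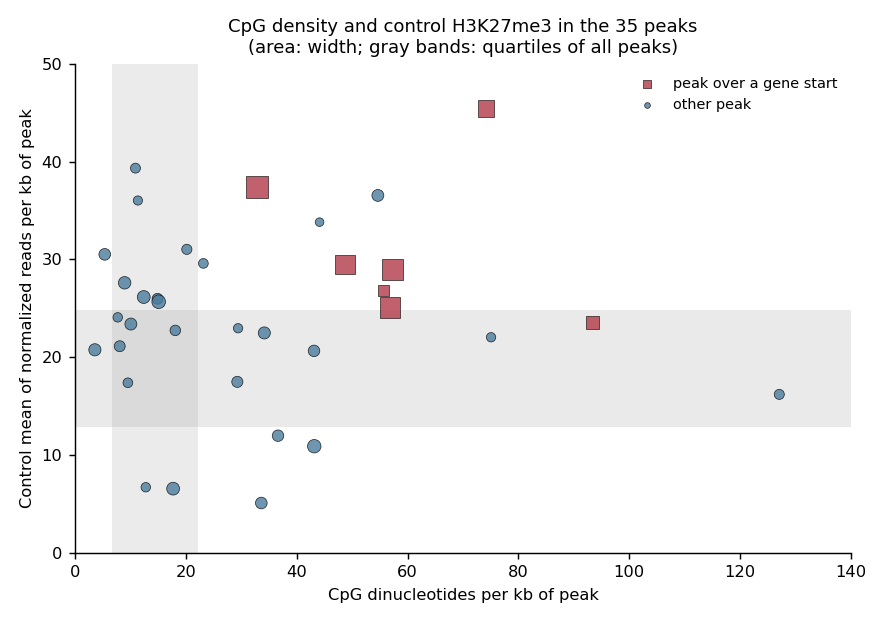
CpG dinucleotides per kb of peak against the control mean of normalized reads per kb, with squares for the 7 peaks over a gene start, circles for the other 28, symbol area increasing with width, and gray bands for the quartiles of all peaks. All 7 start peaks lie to the right of the CpG band, and the circle at 127 CpG per kb is the Neurog2 exon peak.

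The limit of 5 kb decided the membership of a few peaks. Peaks that crossed it and were counted were the outermost peaks of Neurog1, Neurog2 and Ptf1a, with differences of 2.10, 2.73 and 1.57, which are 3 of the 4 higher peaks. Just outside lay a peak 5055 bp from the Neurog2 body, with 3.01 in control and 4.53 in knockdown. Another lay 5191 bp from Ptf1a, with 3.77 and 2.84, and one 5774 bp from Neurog1, with 3.26 and 3.33. The next peaks beyond the windows of Neurod1, Atoh1 and Bhlhe22 were 196479, 50498 and 131809 bp away, so no further peak lay near these windows.

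The same sums were taken for other genes of the pathway. Of 11 other neural bHLH genes, 9 had a peak, with summed reads lower at 4 and higher at 5 and a median of 0.07, and 3 were higher and 0 lower by 1 or more. Olig1, which acts in the oligodendrocyte lineage, had a log2 difference of 1.73 over 3 peaks, and Ferd3l had 1.45 from 1 peak. At the low end Tal2 had -0.74, Nhlh1 -0.42 and Olig3 -0.19. Among the partners, 2 of 3 E protein genes had a peak and none at its start, Tcf12 with -1.80 and Tcf4 with 0.93.

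Of 9 Notch ligands and receptors, 5 had a peak, 2 lower and 3 higher, with 1 past -1, the ligand gene Jag1 at -1.50. Of 13 Hes, Hey and Id genes, 7 had a peak, 3 lower and 4 higher. The single Hes1 peak had 10.6 reads in control, and its knockdown mean was listed at 0 on the log2 scale, which stands for 1 read or fewer, and Heyl, at 0.50, had the highest difference of that list. Of 22 bHLH genes of other tissues, 13 had a peak, 6 lower and 7 higher with a median of 0.00, ranging from Myod1 at -0.68 to the oocyte factor Figla, whose control mean of 1.03 reads was near the lowest listed value.

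Genes known to act downstream of the members had a larger median of summed reads than the members, and a median of 7 peaks beside 5. All 17 had a peak and 13 had a covered start, with a median of 322 reads in control, beside 140 for the 8 members with a peak. Pax4, Insm1, Tbr1 and Prdm8, with 12.2 to 74.3 control reads, lay under that member median. Summed reads of the 17 genes were lower at 13 and higher at 4, with a median of -0.14 and none past 1 in either direction. Below 0 were thus 76.5% of these genes, beside 49.2% of all protein-coding genes with a peak. Of all single peaks, 57.4% were below 0 among those with an overall mean of 4 or more. At an overall mean of 6 or more the share was 64.3%, with a median difference of -0.11. The lowest were Pou4f2 at -0.70, Tbr1 at -0.53 and Prdm13 at -0.36, and the highest Pax4 at 0.54, Gfi1 at 0.37 and Barhl1 at 0.22. Tbr1 and Eomes mark the path from Neurog2 to glutamatergic neurons, Gfi1 and Barhl1 act below Atoh1, and Pax4 below Neurog3. Of the other related bHLH genes, the 3 whose summed control and knockdown reads came closest to those of Neurog3 were Twist1, Neurod2 and Twist2, at log2 distances of 0.56, 0.72 and 0.80 among 31 genes compared. Twist1 had 199 reads in control and 190 in knockdown.

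**Figure D5:**
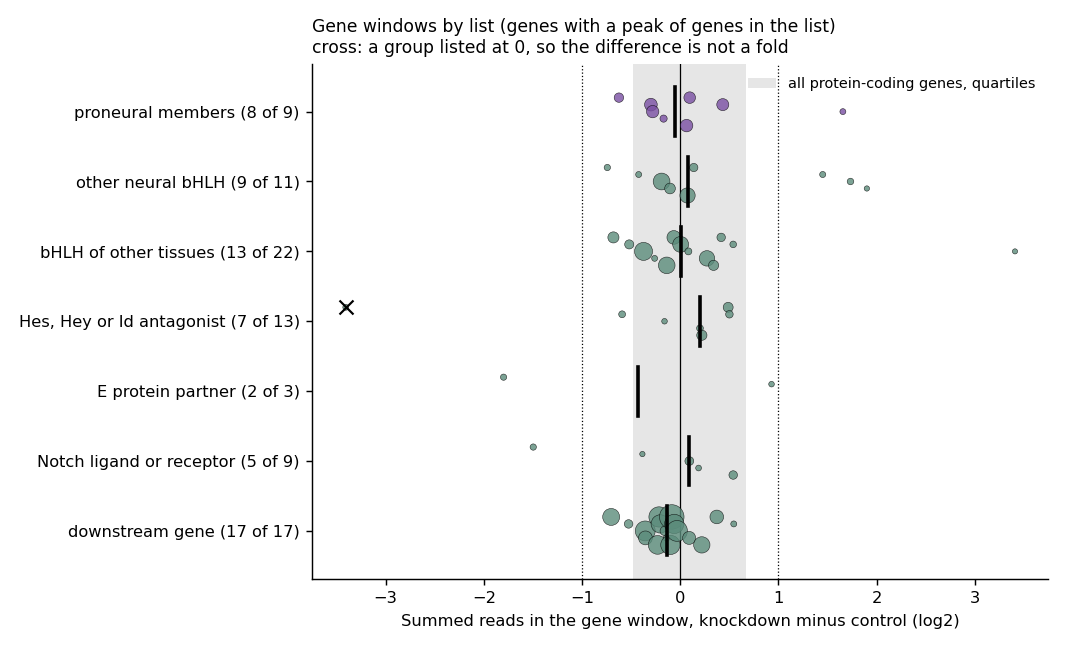
Log2 difference of summed reads (knockdown minus control) for every gene with a peak in its window, by list, with symbol area increasing with control reads, a black bar at each list's median, a gray band for the quartiles of all protein-coding genes and a cross on Hes1, listed at a log2 mean of 0 in knockdown. The members lie between -0.62 and 1.66, and 13 of the 17 downstream genes lie below 0.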

How the data were processed

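H3K27me3 ChIP-seq of control and NeuID knockdown hippocampal neurons was analysed. Per the study's methods and the submitters' processing notes, the authors mapped single-end reads to mm10 (GRCm38) with Bowtie2, used MACS2 for broad peak calling and compared groups with the DESeq2 option of DiffBind. Versions are not given in the sources used here. The authors deposited 1 table of log2 means of normalized reads per peak, over all libraries and by group. Its columns of fold change, p-value and FDR hold the authors' own comparison and were not used. The normalization is not given in the sources used here and decides whether total H3K27me3 could differ. Depth per library and input values were not analysed here. In 32 member peaks the overall mean equalled a mix of 6 control and 5 knockdown libraries, 11 in all, where the labels list 12. The study's text gives yet another number per group, so which libraries are behind the means is not known here.

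A peak belonged to a gene if it overlapped the GENCODE M21 body plus 5 kb on each side by 1 base or more. Log2 means were turned into reads and summed by gene. No test was run, because each group has 1 value per peak. All 9 genes were named, with their start peak or, without one, the strongest, and every peak past 1. Of each related list, at most 3 genes at either end were named, and 1 of them is not reported here. The genes most like Neurog3, the member with the most control reads, were the 3 bHLH genes at the smallest Euclidean distance in log2 summed reads. Members, lists and limits were chosen with earlier results of these data known. Scripts, in Python 3.11.15 with numpy 2.4.6, pandas 2.3.3 and matplotlib 3.10.9, were tested on simulated data. Alternatives were windows of 2 and 10 kb, the nearest gene start, filters on strength and width, centring, limits of 0.5 and 2, and other summaries by gene.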

Additional observations from a re-analysis of the deposited data

How the results depend on the processing

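The number of member peaks was 35 and came to 20 with 2 kb flanks, 17 with an overall mean of at least 4 and 7 with a width of at least 1 kb. The 4 peaks lower by 1 or more became 2 with 2 kb flanks, 0 at 1 kb or wider, 11 at a limit of 0.5 and 2 at a limit of 2. The 4 higher peaks became 0 with 2 kb flanks, 7 when peaks were given to the nearest gene start, 1 with an overall mean of at least 4, 1 at 1 kb or wider, 8 at a limit of 0.5 and 2 at a limit of 2. Genes with a lower sum went from 4 to 2 with peaks of 1 kb or wider only. Neurog1 and Neurog3 stayed lower, while Neurod1 and Bhlhe22 had no peak of that width and so no sum. Each of these settings changes how many peaks are counted.

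By gene, Neurog2 was above 0 in all 7 settings that gave it a value and Atoh1 in all 9, while Neurod1 and Bhlhe22 were below 0 in all 8 of theirs. These settings are not independent checks, and several could not change a sign. Requiring both groups above 0 kept all 35 peaks, and centring on the median of all peaks moved each value by 0.02. For Bhlhe22, the 2 and 10 kb flanks and the nearest gene start returned the main value of -0.17. Neurog2 was 0.54 with 2 kb flanks, Neurod1 was -1.30 with an overall mean of at least 4, and Ptf1a was -0.59 with peaks assigned to the nearest gene start. In that setting a peak over the starts of several genes went to the first gene listed. The Ptf1a start peak was thus given to Ptf1aos, although it covers the Ptf1a start. Neurog1 and Neurog3 were below 0 in 8 of 9 settings and Bhlhe23 above 0 in 6 of 9. The lowest Bhlhe23 value, -0.28, came with the nearest gene start, where its start peak was given to Gm14343 by the same rule. No paired analysis was possible because the table holds 1 mean per group, and leaving out single libraries was not possible for the same reason.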
